A study of Mus musculus with 8 samples.

Results

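Transcripts of 10 regulators of mitochondrial biogenesis were compared between Cox10-/- and wild-type muscle stem cells, taken 2 days after tamoxifen. The regulators are Ppargc1a, Ppargc1b, Pprc1, Nrf1, Gabpa, Esrra, Tfam, Tfb1m, Tfb2m and Polrmt. They were picked by gene symbol, and all 10 had a row among the 17847 genes of the table. All 10 also passed the filter on low values, so 10 of 17801 tested genes are described. The study holds 4 Cox10-/- and 4 wild-type libraries from C57Bl/6 mice. Both genotypes are labelled with the same single intraperitoneal dose of 200 mg/kg tamoxifen. Cox10-/- animals carried a floxed Cox10 allele and a tamoxifen-dependent Cre under Pax7, so the deletion is directed to cells that express Pax7. The labels do not say whether wild-type animals carried the Cre or the floxed allele, and they give no age beyond adult. Cells were sorted from digested skeletal muscle by CD34, with exclusion of cells bearing CD31, CD45 or Sca1 and of dead cells. No label ties a library to its own animal, so p-values measure the spread between libraries, which may be technical in part.

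Mitochondrial proteins come from 2 genomes, and mitochondrial biogenesis keeps their expression in step. The PGC-1 coactivators PGC-1α (Ppargc1a), PGC-1β (Ppargc1b) and PRC (Pprc1) bind no DNA themselves. They act through nuclear factors such as NRF-1 (Nrf1), the ETS-family subunit GABPα (Gabpa) and the orphan nuclear receptor ERRα (Esrra). These factors switch on nuclear genes of the respiratory chain and those of the mitochondrial transcription apparatus. That apparatus consists of the RNA polymerase POLRMT, the DNA-packaging initiation factor TFAM and the initiation factor TFB2M, while its relative TFB1M modifies ribosomal RNA of the mitochondrial ribosome. In skeletal muscle PGC-1α is best known as an inducer of oxidative metabolism under exercise and energy stress. Cox10 encodes a farnesyltransferase of haem A synthesis, and haem A is a cofactor of respiratory complex IV.

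Promoter sequences are shown for the member that rose, Ppargc1a, and for 2 textbook targets of NRF-1 and GABP, Tfam and Tfb2m. They come from RefSeq on build GRCm38.p6, run 5′ to 3′ on the strand of the gene, and span 250 bases before to 50 bases after an annotated start. The Ppargc1a window is chr5:51567676-51567975 on the minus strand, the Tfam window chr10:71237995-71238294 on the minus strand, and the Tfb2m window chr1:179546227-179546526 on the minus strand. Capitals mark exact matches, on either strand, to 4 short motifs spelled out after the sequences.
Ppargc1a: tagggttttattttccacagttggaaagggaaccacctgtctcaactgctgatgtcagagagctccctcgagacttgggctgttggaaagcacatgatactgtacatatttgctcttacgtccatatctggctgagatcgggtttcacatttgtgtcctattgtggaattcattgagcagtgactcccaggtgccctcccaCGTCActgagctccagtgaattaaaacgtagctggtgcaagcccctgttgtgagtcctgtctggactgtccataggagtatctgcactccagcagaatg
Tfam: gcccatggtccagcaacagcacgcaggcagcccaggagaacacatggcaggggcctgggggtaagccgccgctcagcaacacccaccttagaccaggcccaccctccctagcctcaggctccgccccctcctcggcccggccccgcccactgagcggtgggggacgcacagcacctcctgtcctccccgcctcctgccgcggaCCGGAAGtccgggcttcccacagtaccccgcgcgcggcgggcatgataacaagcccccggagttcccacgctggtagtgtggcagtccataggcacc
Tfb2m: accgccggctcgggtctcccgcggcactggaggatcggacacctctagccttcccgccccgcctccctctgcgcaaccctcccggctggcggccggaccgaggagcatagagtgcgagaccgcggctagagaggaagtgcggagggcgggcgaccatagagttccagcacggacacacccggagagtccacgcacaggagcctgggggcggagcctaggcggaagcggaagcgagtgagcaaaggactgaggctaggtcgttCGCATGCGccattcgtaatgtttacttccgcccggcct
The motifs searched were the core of an NRF-1 site (GCATGCG), a GABP-type ETS site (CCGGAAG), the half-site of the cyclic AMP response element (TGACG) and the half-site bound by ERR receptors (AAGGTCA). The Ppargc1a window held 1 match, to the cyclic AMP half-site on the opposite strand, which 20.8% of all 32851 promoter windows also hold. Tfam held 1 ETS site, present in 8.86% of windows. Tfb2m held the NRF-1 core on both strands at 1 palindromic place, and that core is present in 3.58% of windows. Of the 9 members with a window, 4 held the NRF-1 core (Gabpa, Esrra, Tfb2m and Polrmt), 3 the ETS site (Gabpa, Tfam and Polrmt) and 2 the cyclic AMP half-site (Ppargc1a and Tfb1m), and none held the ERR half-site, which 4.72% of windows hold. These are matches of letters and show no binding. The Ppargc1a window belongs to an upstream start. GENCODE M21, on the same build, lists 5 starts for the gene, of which 2 lie at this window. The other 3 lie downstream, the nearest of them 13.8 kb away. The deposited value counts all of them together.

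Reads counted in genes numbered 1693349 to 4348650 in Cox10-/- libraries and 2148645 to 4650051 in wild-type libraries, as recovered from the steps of the values. Cox10 itself had 49, 56, 35 and 7 reads in Cox10-/- replicates 1 to 4, against 56, 23, 81 and 52 in wild-type replicates 1 to 4. On the log2 scale Cox10-/- minus wild-type came to -0.62 with an SE of 0.34 (limma adjusted p = 0.246), so the targeted transcript did not pass the test. The deleted exon is not named in the labels, and reads of the other exons count towards the gene. Pax7, which marks muscle stem cells, lay at 7.15 to 7.52 log2 CPM in Cox10-/- and at 8.45 to 8.77 in wild-type. Of 10 stem cell markers 5 fell, beside 8.51% of all genes. Of 9 haematopoietic markers 6, Ptprc among them, had no row. Endothelial markers, which the sort should exclude, summed to 348 to 433 CPM in Cox10-/- and to 263 to 313 CPM in wild-type. Of these 10 markers 4 rose, beside 7.58% of all genes. Tek and Cdh5 were by far the highest of the 10. Cdh5, at 6.80 to 7.31 log2 CPM in Cox10-/- and 6.49 to 6.75 in wild-type, rose (limma adjusted p = 0.0225). Tek, at 7.33 to 7.53 log2 CPM in Cox10-/- and 6.97 to 7.40 in wild-type, did not pass (limma adjusted p = 0.171). Pecam1, which encodes CD31, lay at 3.76 to 4.86 log2 CPM in Cox10-/- and 2.70 to 4.32 in wild-type, and it rose (limma adjusted p = 0.0240). Ly6a, which encodes Sca1 and was also sorted against, lay at 2.34 to 3.82 log2 CPM in Cox10-/- and at 0 to 2.24 in wild-type, and it rose (limma adjusted p = 0.0202). Replicates 1 and 2, and replicates 3 and 4, were the closest pairs in both genotypes. Whether these share an animal or a day was not tested.

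Of the 10 regulators, 1 rose, 1 fell and 8 did not pass the test. Over all genes 16.1% passed at an adjusted p of 0.05 or less, so 2 of 10 is close to the share of the whole table. Rises made up 7.58% and falls 8.51% of all genes, so 47.1% of calls were rises, against 58.4% once libraries were centred on their medians. The median log2 fold change of the 10 was -0.09, beside -0.06 over all genes tested, and 7 of the 10 lay below 0. Both called genes are PGC-1 coactivators, and they moved in opposite directions. The same 2 were the members whose Cox10-/- and wild-type libraries did not overlap, a pattern that 21.1% of all genes show (9.3% higher and 11.8% lower). In sorted bulk cells, less RNA per cell and fewer cells with the RNA cannot be told apart.

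**Figure D1:**
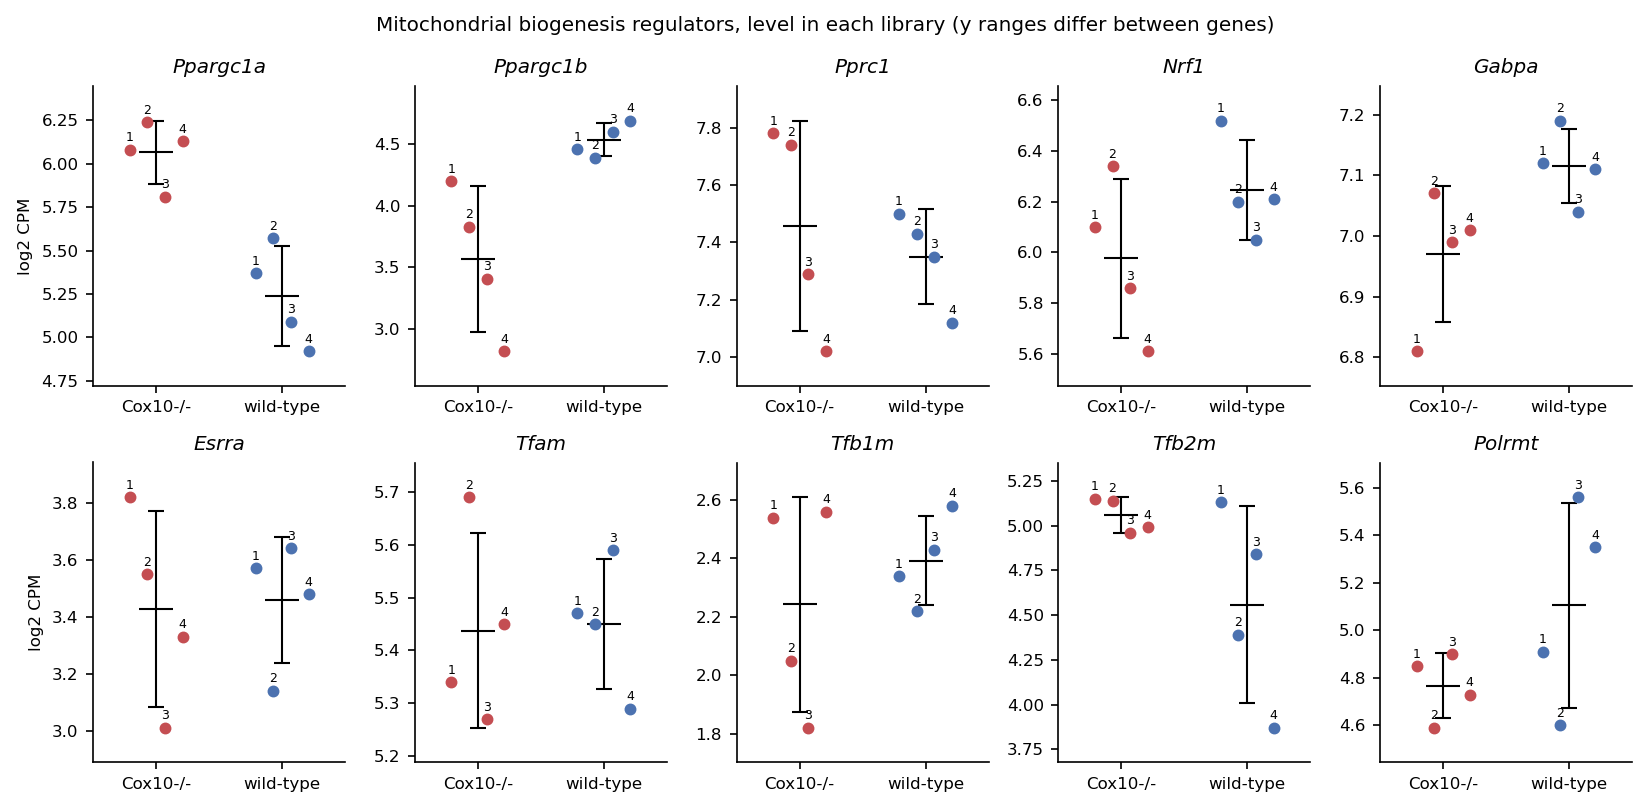
Level of each regulator in log2 CPM (y axis, a different range for each gene) in the 4 Cox10-/- and 4 wild-type libraries (points, numbered by replicate), with the mean and SD as bars. The Cox10-/- points lie above the wild-type points for Ppargc1a and below them for Ppargc1b, and the genotypes overlap for the other 8 genes.

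Ppargc1a, the founding PGC-1 coactivator, was higher in Cox10-/- cells. It stood at 6.08, 6.24, 5.81 and 6.13 log2 CPM in Cox10-/- replicates 1 to 4, against 5.37, 5.57, 5.09 and 4.92 in wild-type replicates 1 to 4. Every Cox10-/- library lay above every wild-type library. The rise was 0.83 ± 0.15 on the log2 scale (SE, n = 4 per genotype; 95% interval 0.49 to 1.16; limma adjusted p = 0.00368), or 1.77-fold (1.41 to 2.24). These values rest on 119 to 329 reads per Cox10-/- library and 102 to 158 per wild-type library. The difference was 0.69 within replicates 1 and 2 and 0.97 within replicates 3 and 4. The call held in all 16 other settings, with adjusted p between 4.4e-04 and 0.0446 and a log2 fold change of 0.72 to 0.94.

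Ppargc1b, the closest relative of Ppargc1a, was lower in Cox10-/- cells. It stood at 4.20, 3.83, 3.41 and 2.82 log2 CPM in Cox10-/- replicates 1 to 4, against 4.46, 4.39, 4.60 and 4.69 in wild-type replicates 1 to 4. No Cox10-/- library reached the lowest wild-type library, but the Cox10-/- libraries were spread more widely (SD 0.59, against 0.14 in wild-type, n = 4 each). The fall was -0.97 ± 0.26 on the log2 scale (SE, n = 4 per genotype; 95% interval -1.54 to -0.40; limma adjusted p = 0.0266), to 51.1% of wild-type. The lowest library, Cox10-/- replicate 4, was also the shallowest, with 12 reads of the gene. Without it the log2 fold change was -0.72, with an adjusted p of 0.0393. Within replicates 1 and 2 the difference was -0.41, and within replicates 3 and 4 it was -1.53. The call was lost without Cox10-/- replicate 3 (adjusted p = 0.0734), wild-type replicate 1 (0.0594), wild-type replicate 3 (0.0623) and wild-type replicate 4 (0.0663), and with pairs of replicates averaged to 2 samples per genotype (0.132). Its direction was the same in all 16 settings, where adjusted p ran from 0.00989 to 0.132.

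Because the pair moved in opposite directions, their ratio was compared within each library, where scaling between libraries cancels. The log2 ratio of Ppargc1a to Ppargc1b was 1.88, 2.41, 2.40 and 3.31 in Cox10-/- replicates 1 to 4, against 0.91, 1.18, 0.49 and 0.23 in wild-type replicates 1 to 4. The lowest Cox10-/- ratio exceeded the highest wild-type ratio. The mean ratio differed by 1.80 on the log2 scale, a 3.48-fold shift (exact two-sided permutation p = 0.0286 over 70 assignments, the smallest possible; 0.0429 adjusted over the 3 ratios tested). The shift was 1.10 within replicates 1 and 2 and 2.50 within replicates 3 and 4. Both genes were singled out with their fold changes known. Every Cox10-/- library lay above every wild-type library for Ppargc1a and below every one for Ppargc1b. The ratios therefore had to separate, and the permutation p had to be the smallest possible. This p was fixed in advance and is no independent evidence.

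Pprc1 encodes PRC, the third coactivator, which is known as a serum-responsive gene in cultured cells. It stood at 7.78, 7.74, 7.29 and 7.02 log2 CPM in Cox10-/- replicates 1 to 4, against 7.50, 7.43, 7.35 and 7.12 in wild-type replicates 1 to 4. The genotypes overlapped, and the log2 fold change of 0.11 ± 0.16 (SE, n = 4 per genotype; 95% interval -0.24 to 0.45; limma adjusted p = 0.691) did not pass. In both genotypes replicates 1 and 2 lay above replicates 3 and 4. The log2 ratio of Ppargc1a to Pprc1 averaged -1.39 ± 0.35 in Cox10-/- and -2.11 ± 0.18 in wild-type (SD, n = 4 each), with no overlap. It was higher by 0.72 (exact permutation p = 0.0286; 0.0429 adjusted over the 3 ratios). The difference was 0.40 within replicates 1 and 2 and 1.05 within replicates 3 and 4. Here too the genes were paired with their fold changes known, so the p is no independent evidence. This ratio did not pass without Cox10-/- replicate 4 (0.55) or without wild-type replicate 1 (0.71), 3 (0.67) or 4 (0.69), at an exact permutation p of 0.0571 each.

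**Figure D2:**
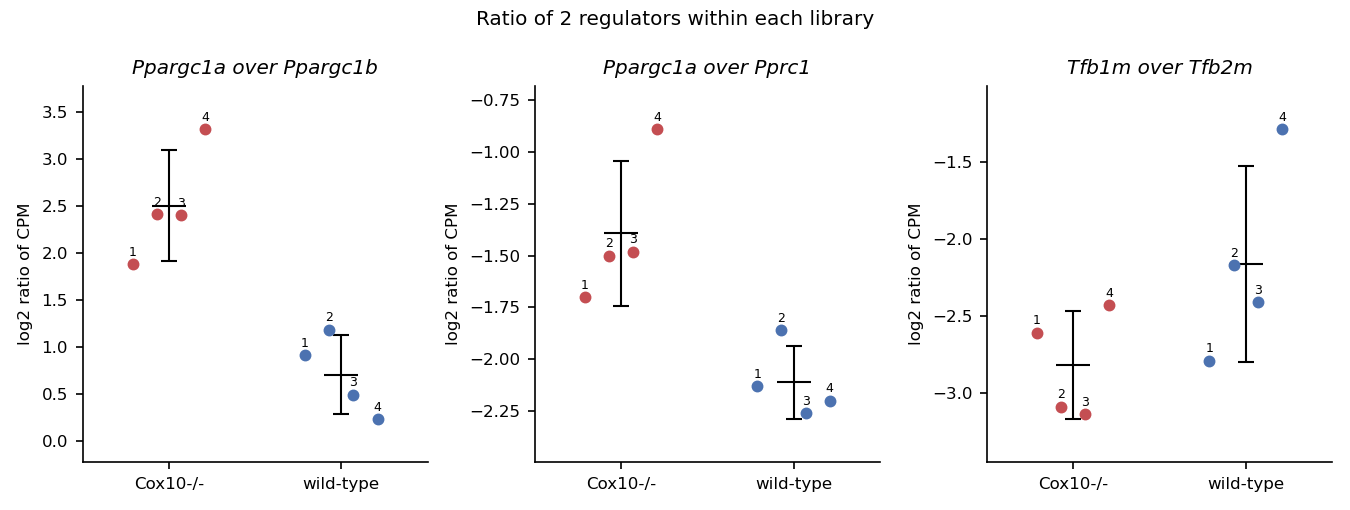
Log2 ratio of the CPM of 2 regulators (y axis) in each Cox10-/- and wild-type library (points, numbered by replicate), with the mean and SD as bars. The Cox10-/- points lie above the wild-type points in both Ppargc1a ratios, and the genotypes overlap in the ratio of Tfb1m to Tfb2m.

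None of the 3 nuclear DNA-binding factors passed the test. Nrf1 encodes NRF-1, which binds GC-rich promoters of respiratory genes and is a different protein from the antioxidant factor NRF2. It stood at 6.10, 6.34, 5.86 and 5.61 log2 CPM in Cox10-/- replicates 1 to 4, against 6.52, 6.20, 6.05 and 6.21 in wild-type replicates 1 to 4. The genotypes overlapped, at a log2 fold change of -0.27 ± 0.16 (SE, n = 4 per genotype; 95% interval -0.61 to 0.07; limma adjusted p = 0.272). Gabpa encodes the DNA-binding subunit of GABP and had the smallest spread of the 10 genes in wild-type (SD 0.06). It stood at 6.81, 7.07, 6.99 and 7.01 log2 CPM in Cox10-/- replicates 1 to 4, against 7.12, 7.19, 7.04 and 7.11 in wild-type replicates 1 to 4. Cox10-/- replicate 2 lay within the wild-type range and the other 3 below it. The log2 fold change of -0.15 ± 0.09 (95% interval -0.34 to 0.05; limma adjusted p = 0.293, n = 4 per genotype) did not pass, and its interval allows a fall of at most 0.34. Esrra encodes ERRα, through which PGC-1α acts on genes of oxidative metabolism. It stood at 3.82, 3.55, 3.01 and 3.33 log2 CPM in Cox10-/- replicates 1 to 4, against 3.57, 3.14, 3.64 and 3.48 in wild-type replicates 1 to 4. Its log2 fold change was -0.03 ± 0.24 (95% interval -0.55 to 0.49; limma adjusted p = 0.948, n = 4 per genotype), and it was 0.33 within replicates 1 and 2 but -0.39 within replicates 3 and 4. Esrra had 17 to 61 reads in Cox10-/- and 19 to 58 in wild-type libraries, and its interval leaves room for a change of about 0.5 either way.

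The 4 genes that act inside mitochondria did not pass either. Tfam, which compacts mitochondrial DNA and starts its transcription, stood at 5.34, 5.69, 5.27 and 5.45 log2 CPM in Cox10-/- replicates 1 to 4, against 5.47, 5.45, 5.59 and 5.29 in wild-type replicates 1 to 4. The genotypes overlapped throughout, with a difference of -0.01 ± 0.13 on the log2 scale (SE; limma adjusted p = 0.961). The 95% interval of -0.29 to 0.27 lies inside the size of the Ppargc1a rise. Tfb2m, whose product opens mitochondrial promoters for POLRMT, stood at 5.15, 5.14, 4.96 and 4.99 log2 CPM in Cox10-/- replicates 1 to 4, against 5.13, 4.39, 4.84 and 3.87 in wild-type replicates 1 to 4. Cox10-/- libraries were close together (SD 0.10) and wild-type libraries far apart (SD 0.55), with wild-type replicate 1 inside the Cox10-/- range. The log2 fold change of 0.50 ± 0.23 (95% interval 4.1e-05 to 1.00; limma adjusted p = 0.162, n = 4 per genotype) did not pass, and it was 0.27 without wild-type replicate 4. Tfb1m, the methyltransferase relative, had the fewest reads, 10 to 25 per library in both genotypes. It stood at 2.54, 2.05, 1.82 and 2.56 log2 CPM in Cox10-/- replicates 1 to 4, against 2.34, 2.22, 2.43 and 2.58 in wild-type replicates 1 to 4. Tfb1m differed by -0.15 ± 0.28 on the log2 scale (95% interval -0.76 to 0.46; limma adjusted p = 0.757, n = 4 per genotype), and the genotypes overlapped. The log2 ratio of Tfb1m to Tfb2m was lower by 0.65 in Cox10-/- (mean -2.82, against -2.17 in wild-type), which did not pass (exact permutation p = 0.114, also 0.114 adjusted over the 3 ratios). Polrmt stood at 4.85, 4.59, 4.90 and 4.73 log2 CPM in Cox10-/- replicates 1 to 4, against 4.91, 4.60, 5.56 and 5.35 in wild-type replicates 1 to 4. Wild-type replicates 3 and 4 lay above all other libraries, and the other 6 overlapped. The log2 fold change of Polrmt was -0.34 ± 0.20 (95% interval -0.77 to 0.09; limma adjusted p = 0.272, n = 4 per genotype), with -0.04 within replicates 1 and 2 and -0.64 within replicates 3 and 4.

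**Figure D3:**
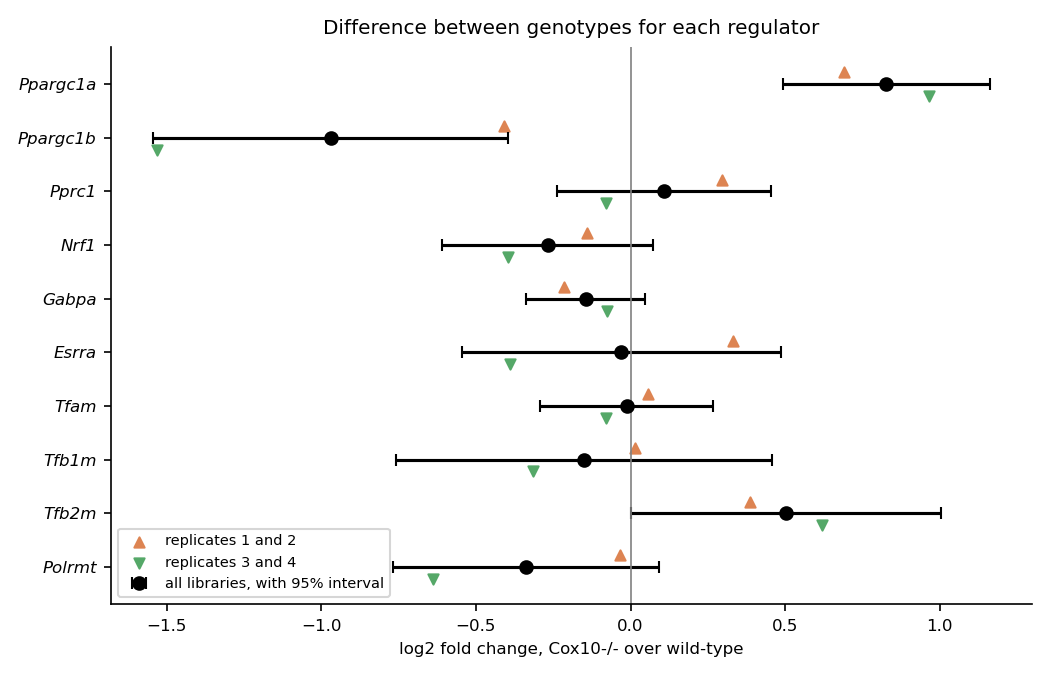
Log2 fold change of each regulator, Cox10-/- over wild-type (x axis), with the 95% interval of the fit as a bar, beside the difference within replicates 1 and 2 (upward triangles) and within replicates 3 and 4 (downward triangles). Ppargc1a lies to the right of 0 and Ppargc1b to the left in both pairs of replicates, while Pprc1, Esrra, Tfam and Tfb1m change side between them.

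The sign within replicates 1 and 2 matched that within replicates 3 and 4 for 6 of the 10 members, namely Ppargc1a, Ppargc1b, Nrf1, Gabpa, Tfb2m and Polrmt. Divided by the exon length of GENCODE M21, which is on another build than the counted reads, levels can be set side by side in CPM per kb. Pprc1 and Gabpa led in both genotypes, at 28.6 ± 7.0 and 22.1 ± 1.67 CPM per kb in Cox10-/- and at 26.1 ± 2.88 and 24.4 ± 1.04 in wild-type (SD, n = 4 each). The ranges of this pair overlapped in both genotypes. Ppargc1a had the fourth highest level in Cox10-/- cells, at 10.2 ± 1.24 CPM per kb, against 5.81 ± 1.16 in wild-type cells. Ppargc1b had 3.15 ± 1.22 CPM per kb in Cox10-/- cells and 5.83 ± 0.55 in wild-type cells. By this measure the ranges of the PGC-1 pair overlapped in wild-type cells and stood apart in Cox10-/- cells. The overlap depends on the lengths used, 6.59 kb for Ppargc1a and 3.99 kb for Ppargc1b, which pool all annotated exons. In CPM, Ppargc1a lay above Ppargc1b in every wild-type library, at a log2 ratio of 0.23 to 1.18. In Cox10-/- cells the middle of the order was Tfb2m at 11.9 ± 0.82, Ppargc1a, Tfam at 9.83 ± 1.30, Nrf1 at 6.24 ± 1.35 and Polrmt at 5.83 ± 0.55 CPM per kb. The first 3 of these overlapped, as did the last 2. In wild-type cells Tfam at 9.88 ± 0.84, Tfb2m at 8.85 ± 3.17, Polrmt at 7.59 ± 2.21 and Nrf1 at 7.43 ± 1.06 CPM per kb overlapped, each with the next. Esrra, at 2.50 ± 0.59 in Cox10-/- and 2.53 ± 0.36 in wild-type, and Tfb1m, at 1.34 ± 0.33 and 1.46 ± 0.15 CPM per kb in the same genotypes, were the lowest, and their ranges did not overlap in either genotype.

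Several members share their start region with a neighbour in GENCODE M21. Pprc1 and Ldb1, a cofactor of LIM-domain factors, start 328 bases apart on opposite strands. Ldb1 rose by 0.57 ± 0.09 on the log2 scale (SE, n = 4 per genotype; limma adjusted p = 0.00109), while Pprc1 did not pass, and the difference between the pair was not tested. Gabpa and Atp5j, a subunit of ATP synthase, start 700 bases apart, and Atp5j was at 0.03 ± 0.12 (adjusted p = 0.903). Tfb2m and Cnst start 103 bases apart, and Cnst was at -0.02 ± 0.13 (adjusted p = 0.943). Exons overlap those of a gene on the opposite strand over 6.98% of Gabpa, 3.94% of Tfb1m (Tiam2), 2.82% of Pprc1 and 1.66% of Esrra (Trmt112). Whether strand was used in counting is not given in the sources used here, so reads of these stretches are uncertain. Ppargc1a and Ppargc1b have no such overlap there.

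The genes with the profile most like Ppargc1a over the 8 libraries were Arl4a, Clec1a, Usp53, Prkch and Tmem62. Likeness was the root-mean-square difference between centred log2 CPM values, over 11985 genes with a mean of at least 2, where the median gene differed from Ppargc1a by 0.56. Arl4a, a small GTPase of the ARF family, differed by 0.10, the lectin-like receptor gene Clec1a by 0.13, Usp53 by 0.13, the kinase gene Prkch by 0.15 and Tmem62 by 0.16. Arl4a stood at 7.08 to 7.32 log2 CPM in Cox10-/- and 6.13 to 6.58 in wild-type. Because the genes were picked for this likeness, their own differences between genotypes follow from the choice and are not tested. This ranking is a description of 8 libraries and says nothing of shared control.

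Among 43 PGC-1 coregulators and modifiers, 6 rose, 6 fell and 31 did not pass, with a median log2 fold change of 0.03. The share called was 27.9%, beside 16.1% over all genes (7.58% higher and 8.51% lower). Over the 16 other settings 1 to 8 rose and 1 to 7 fell, with 1 of each when pairs of replicates were averaged. Without Cox10-/- replicate 3, 2 rose and 2 fell, where 1840 genes were called in all. Without wild-type replicate 4, 2 rose and 3 fell, where 2171 genes were called in all. The calls of Prkab2, Flcn, Kat2a, Ep300, Hcfc1, Crtc2, Prmt1 and Kat2b, named after their values were seen, were each lost in 4 to 11 settings. Lpin1, whose product lipin 1 is both a phosphatidate phosphatase and a partner of PGC-1α, rose the most. It averaged 7.29 ± 0.18 log2 CPM in Cox10-/- and 6.10 ± 0.14 in wild-type (SD, n = 4 each), a rise of 1.19 ± 0.11 (SE; limma adjusted p = 4.0e-05). Crtc1, a coactivator of CREB, fell by 0.88 ± 0.15 on the log2 scale (adjusted p = 0.00223). The other Crtc genes listed did not fall with it. Crtc2 rose by 0.41 (adjusted p = 0.0386), and Crtc3, at -0.12, did not pass (adjusted p = 0.315). The steroid receptor coactivator gene Ncoa3 rose by 0.41 ± 0.09 (adjusted p = 0.0126).

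Among 32 nuclear receptors and other transcription factor genes listed around the coactivators, 4 rose, 3 fell and 25 did not pass, with a median of -0.01. The share called was 21.9%, beside 16.1% over all genes (7.58% higher and 8.51% lower). Thrb, a thyroid hormone receptor, rose by 1.03 ± 0.22 on the log2 scale (SE, n = 4 per genotype; limma adjusted p = 0.00807). Mlxip, a glucose-responsive factor also called MondoA, rose by 0.63 ± 0.09 (adjusted p = 5.5e-04), and Max, the dimer partner of MYC, rose by 0.53 ± 0.10 (adjusted p = 0.00478). Creb1, which encodes the factor that binds the cyclic AMP response element and is known to act on Ppargc1a in liver and muscle, fell by 0.89 ± 0.15 (adjusted p = 0.00226). Esrrg, an ERR receptor named after its values were seen, fell by 1.38 ± 0.35 (adjusted p = 0.0185), and that call was lost without wild-type replicate 1 (0.0515). The remaining ERR receptor gene, Esrrb, was at -0.47 (adjusted p = 0.462).

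Of 42 textbook nuclear-encoded targets of PGC-1, NRF-1, GABP or ERRα, 3 rose, 10 fell and 29 did not pass, with a median of -0.15, beside 7.58% higher and 8.51% lower over all genes. The number of falls moved with the setting. It was 6 after median centring (3 rose), 4 without wild-type replicate 1 (2 rose), 5 without Cox10-/- replicate 2 (3 rose), 6 without Cox10-/- replicate 3 or wild-type replicate 4 (2 rose in each), and 1 with pairs of replicates averaged (0 rose). Fndc5, the precursor gene of irisin and a PGC-1α target in muscle fibres, fell the most. It lay at 2.28 to 3.45 log2 CPM in Cox10-/- and at 4.14 to 5.57 in wild-type, a fall of 1.90 ± 0.33 (SE, n = 4 per genotype; limma adjusted p = 0.00217). The thioredoxin gene Txn2 fell by 0.72 ± 0.12 (adjusted p = 0.00205) and Idh3a, of the citric acid cycle, by 0.74 ± 0.15 (adjusted p = 0.00522). Pdk4, which encodes a kinase that restrains pyruvate dehydrogenase and is an ERRα target, rose by 0.60 ± 0.13 (adjusted p = 0.00877). The genes that follow were named after their values were seen. Ndufs8, a subunit of complex I, fell (adjusted p = 0.0116) and Sod2, the mitochondrial superoxide dismutase, rose (adjusted p = 0.0168), and both calls held without any 1 library. Other calls were less stable over the 16 other settings. That of Atp5o was lost in 2, Atp5b in 5, Cyc1 in 6, Atp5g1 in 8, Cs in 9, and the rise of Gpx1 in 11. All of these, Ndufs8 and Sod2 included, were lost with pairs of replicates averaged.

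Genes that copy and maintain mitochondrial DNA went both ways. Of 20, 2 rose, 5 fell and 13 did not pass, with a median of -0.29. The share called was 35%, beside 16.1% over all genes (7.58% higher and 8.51% lower). Over the 16 other settings 2 to 4 rose and 1 to 6 fell. The median was -0.0025 within replicates 1 and 2 and -0.48 within replicates 3 and 4, so the lower median came from the latter pair. Slc25a33, a carrier of pyrimidine nucleotides into mitochondria, averaged 5.28 ± 0.38 log2 CPM in Cox10-/- and 3.37 ± 0.11 in wild-type (SD, n = 4 each). Its rise of 1.91 ± 0.20 (SE; limma adjusted p = 7.2e-05) was 3.76-fold. Polg2, the accessory subunit of the mitochondrial DNA polymerase, rose by 0.86 ± 0.18 (adjusted p = 0.00621). Top1mt, the mitochondrial topoisomerase, fell by 1.25 ± 0.21 (adjusted p = 0.00171), and the nuclease gene Exog by 1.08 ± 0.27 (adjusted p = 0.0180). For Exog the test no longer passed when wild-type replicate 3 (0.0577) or 4 (0.0606) was left out. The remaining falls, named after their values were seen, were no more stable. Over the 16 other settings the call of Dguok was lost in 4, Primpol in 4 and Mgme1 in 6. Without wild-type replicate 3, and likewise without wild-type replicate 4, 2 of the 20 fell and 2 rose. Of 29 genes of mitochondrial transcript elongation, termination and RNA processing, 2 fell, none rose and 27 did not pass (median -0.22, with 21 below 0). The share called was 6.9%, under that of all genes. Their median was -0.085 within replicates 1 and 2 and -0.39 within replicates 3 and 4. The 2 that fell were Lrpprc, which stabilises mitochondrial mRNAs (-0.45 ± 0.12; adjusted p = 0.0261), and Ptcd2 (-0.56 ± 0.16; adjusted p = 0.0308). Lrpprc no longer passed when Cox10-/- replicate 3 or 4 or wild-type replicate 1, 3 or 4 was left out, nor did Ptcd2 when Cox10-/- replicate 1, 2 or 3 or wild-type replicate 1 or 3 was left out. Supv3l1, a helicase of mitochondrial RNA decay, was at -0.48 ± 0.15 (adjusted p = 0.0539). It passed in 3 other settings, at 0.0455 on log2(CPM + 1), 0.0428 once the pair of replicates entered the fit (1 and 2, or 3 and 4), and 0.0364 by limma-voom. Elac2, a tRNA-processing nuclease, was at -0.37 ± 0.14 (adjusted p = 0.0929). With pairs of replicates averaged to 2 samples per genotype, the calls of Max, Thrb, Esrrg, Ncoa3, Txn2, Idh3a, Pdk4, Exog, Lrpprc and Ptcd2 were also lost.

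**Figure D4:**
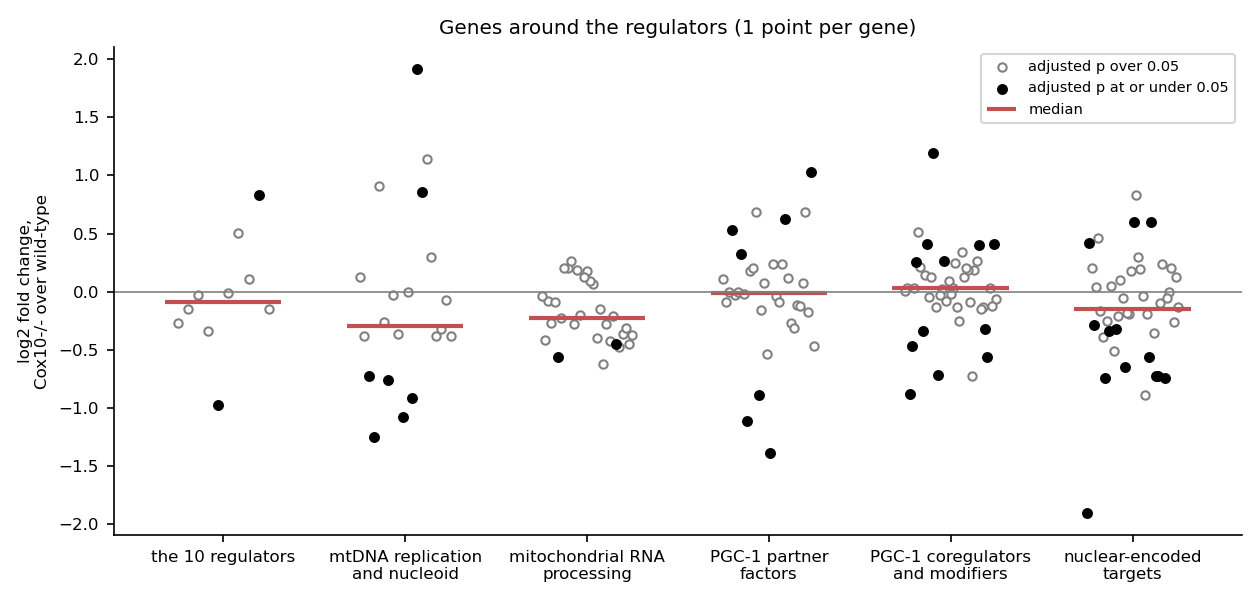
Log2 fold change, Cox10-/- over wild-type (y axis), of the 10 regulators and of 5 surrounding gene lists (1 point per gene, filled where the adjusted p is 0.05 or less), with the median of each list as a bar. The regulators have a median of -0.09, the list medians run from -0.29 to 0.03, and Slc25a33 (1.91) and Fndc5 (-1.90) are the outermost points.

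The products of the mitochondrial transcription apparatus, the 13 mitochondrially encoded mRNAs, gave no call. None passed with limma at the adjusted threshold, and the smallest adjusted p was 0.209 (mt-Nd3). They fell into separate sets by their behaviour over libraries, described here after their values were seen. For mt-Nd1, mt-Nd2, mt-Nd4, mt-Nd5, mt-Nd6, mt-Co1 and mt-Cytb the log2 fold change lay between -0.30 and 0.12. mt-Nd5 stood at 8.67, 8.70, 8.92 and 9.54 log2 CPM in Cox10-/- replicates 1 to 4, against 8.87, 9.32, 8.66 and 8.85 in wild-type replicates 1 to 4. The genotypes overlapped, as did those of Tfam. mt-Nd4 was lowest in Cox10-/- replicates 1 and 2 and wild-type replicate 3, at 6.95 to 7.20 log2 CPM, against 8.04 to 8.31 in the other 5 libraries. The remaining 6 differed far more between libraries. mt-Co2 stood at 3.02, 2.88, 6.95 and 5.41 log2 CPM in Cox10-/- replicates 1 to 4, against 7.31, 7.35, 2.69 and 6.89 in wild-type replicates 1 to 4. Cox10-/- replicates 1 and 2 and wild-type replicate 3 were low for mt-Nd3, mt-Nd4l, mt-Co2, mt-Co3, mt-Atp6 and mt-Atp8. Without wild-type replicate 3, mt-Nd3, mt-Nd4l, mt-Co2 and mt-Atp8 passed as lower (adjusted p from 0.0184 to 0.0489). The 3 low libraries thus come from both genotypes. All 13 together took 0.154% to 0.313% of CPM in Cox10-/- and 0.153% to 0.315% in wild-type libraries. How reads with several matches were counted is not given in the sources used here. These values are therefore an uncertain measure of mitochondrial transcripts, and the lack of a call does not show that their levels were unchanged. Whether the counting bears on the 6 uneven mRNAs was not tested.

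**Figure D5:**
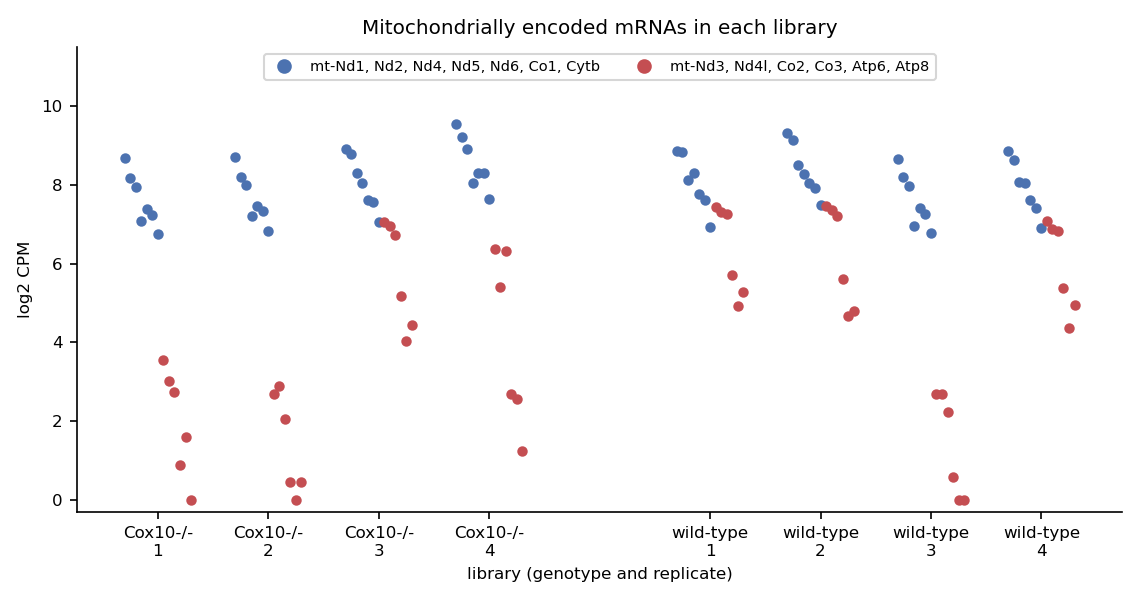
Level of each of the 13 mitochondrially encoded mRNAs in log2 CPM (y axis) in each library (x axis), 1 point per gene, in the same left-to-right order in every library. The 7 genes in blue keep to 6.7 or more in every library, and the 6 in red drop in Cox10-/- replicates 1 and 2 and in wild-type replicate 3, with lower values also in Cox10-/- replicate 4 than in replicate 3.

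The fall of Ppargc1b and the rise of Ppargc1a stood beside shifts in cell type markers. Muscle stem cell markers summed to 1781 to 1977 CPM in Cox10-/- and to 2546 to 3239 CPM in wild-type, and of 10 endothelial markers Cldn5 and Egfl7 reached 0 in both genotypes. Muscle fibre markers summed to 135 to 363 CPM in Cox10-/- and to 95.1 to 241 CPM in wild-type, and 2 of 10 rose (Ckm and Tnnt3). Fibro-adipogenic markers summed to 1786 to 3125 CPM in Cox10-/- and 1484 to 2360 CPM in wild-type, with 2 of 6 higher and 1 lower. Mural markers summed to 645 to 764 CPM in Cox10-/- and 527 to 677 CPM in wild-type, with 1 of 6 higher and 2 lower. Over all genes 7.58% were higher and 8.51% lower. The 3 haematopoietic markers with a row summed to 24.2 to 44.6 CPM in Cox10-/- and 23.5 to 31.3 CPM in wild-type. The endothelial and stem cell sums, like Ppargc1a and Ppargc1b, did not overlap between genotypes, and the other sums did. The part of these cells in the levels of the regulators was not tested.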

How the data were processed

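RNA was measured in 8 libraries, 4 Cox10-/- and 4 wild-type, of sorted muscle stem cells, with libraries made by a stranded kit for small RNA inputs, per the labels' protocols. Trim Galore, HISAT2, featureCounts, DESeq2 and the build mm9 are named in the submitters' processing notes. Their versions, their order and the strand setting of counting are not stated in the sources used here. The authors deposited log2 CPM with 2 decimals. No value lies below 0, so a CPM under 1 was taken to stand at 0. A further 1054 rows held no gene, and 21 symbols read as dates.

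The genotypes were compared on these log2 values as deposited, without a pseudocount, using limma 3.58.1 (R 4.3.3) with a trended prior variance and genotype as the single term. P-values were adjusted by Benjamini-Hochberg over all 17801 genes above 0 in at least 4 libraries, at a threshold of 0.05. The functions were tested on simulated data. Fold changes of genes near 0 are understated. Low values were whole multiples of 1 step in every library (100% within 0.1 of a whole number, up to 20 reads), which gave reads and depth. Replicates differed by 2.98 to 10.1 in chi-square per degree of freedom over these reads, so no pair agreed within sampling noise. Ratios were tested by exact permutation over libraries. Motifs were chosen with the promoter letters in view. The genes named are the 10 members, Cox10, Pax7, up to 4 genes per list with the smallest p and the 5 profiles nearest to Ppargc1a. Some list genes are not reported here. The members and lists were chosen with earlier results of these data known, and 179 of 181 list entries had a row. Alternatives covered the filter, log2(CPM + 1), median centring, replicate terms and leaving out libraries.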

Additional observations from a re-analysis of the deposited data

Results flagged for a closer look

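In 88 groups of 4 libraries (the named genes and ratios in each genotype), 8 held a library set far apart from the other 3 by Dixon's test. Chance alone gives about 1 in 20 such groups. Cox10 was lowest in Cox10-/- replicate 4, at 2.05 log2 CPM, the shallowest library. Wild-type replicate 3 stood apart in 4 mitochondrially encoded mRNAs, at 0 log2 CPM for mt-Nd3, 0.59 for mt-Nd4l, 2.69 for mt-Co2 and 0 for mt-Atp8. Arl4a and Usp53, with profiles near that of Ppargc1a, were highest in Cox10-/- replicate 2, at 7.32 and 7.66 log2 CPM. Clec1a was highest among wild-type libraries in replicate 2, at 6.22 log2 CPM. No group of the 10 regulators or of the 3 ratios was among the 8.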

How the results depend on the processing

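Over the 16 other settings, Ppargc1a kept its call and direction, and Ppargc1b kept its direction in all and its call in 11. The number of regulators called was 1 to 2 without 1 library and 1 with pairs of replicates averaged, where 858 genes were called in all, against 2863 as reported and 1840 to 2907 without 1 library (1840 without Cox10-/- replicate 3 and 1902 without wild-type replicate 1). Rises made up 47.1% of calls as deposited and 58.4% after median centring, and both called regulators kept their call there. Beyond the number, the labels name nothing that same-numbered libraries share. Correlations of their deviations were 0.05, 0.14, 0.11 and 0.13, so not every pair passed 0.1. Nor did every library correlate best with its own number. Between genotypes, correlations ran from 0.03 to 0.16 among replicates 1 and 2 and from -0.02 to 0.15 among replicates 3 and 4. Across these pairs they ran from -0.22 to 0.03. A fit with a term for the pair of replicates called 3838 genes and 2 regulators. Whether a batch lies behind the pairs was not tested. A fit with the replicate block called 3201 genes and 2 regulators. For the 3 ratios the mean of paired differences equals the main difference by construction. Without 1 library, the log2 ratio of Ppargc1a to Ppargc1b differed by 1.53 to 2.00, that of Ppargc1a to Pprc1 by 0.55 to 0.82, and that of Tfb1m to Tfb2m by -0.86 to -0.36. Within replicates 1 and 2 and within replicates 3 and 4 the first ratio differed by 1.10 and 2.50 and the second by 0.40 and 1.05, with the cause not tested. Across settings, 1 to 11 targets fell and 0 to 4 rose, and 1 to 6 genes of mitochondrial DNA fell and 2 to 4 rose. Likewise 1 to 7 coregulators fell and 1 to 8 rose, and 1 to 5 of the 32 listed transcription factor genes fell and 1 to 5 rose. Among RNA processing genes, as among mitochondrially encoded mRNAs, 0 to 4 fell and none rose. The 2 planned count-model tests on recovered reads were not run, since the deposited unit is log2 CPM and reads under a CPM of 1 are lost. In their place limma-voom on the recovered reads, added after the data were seen, called 3006 genes and 2 regulators. Low read numbers limit Tfb1m (10 to 25 per library), Ppargc1b (12 to 113) and Esrra (17 to 61).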
